A study of Mus musculus with 16 samples.

Results

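The 9 genes described here are the transcription factors that set aside and mature skeletal muscle cells: *Pax7*, *Myf5*, *Myod1*, *Myog*, *Myf6*, *Mef2a*, *Mef2c*, *Mef2d* and *Six4*. They were chosen by symbol from the 41388 genes of the count table, each symbol matched 1 row, and all 9 passed the filter on low counts in every comparison. Satellite cells are the stem cells of muscle, held beneath the sheath of the fiber and marked by PAX7. When they are activated, the basic helix-loop-helix factors MYF5 and MYOD1 commit them to the muscle lineage, MYOG drives their differentiation and fusion, and MYF6 (also called MRF4) is the member of that family best known from mature fibers. MEF2 proteins act with these factors on muscle genes, and SIX4 is a homeodomain protein that works upstream of and beside them.

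RNA was sequenced from quadriceps of C57BL/6 mice (C57BL6J in the methods of the study) in a study of tamoxifen in a model of X-linked myotubular myopathy, a congenital disease caused by loss of the lipid phosphatase MTM1. The *Mtm1* KO mice carry a deletion of exon 4 of *Mtm1* in the whole animal, and the WT mice are wild type at this gene. In WT + TAM and *Mtm1* KO + TAM, tamoxifen, a modulator of the estrogen receptor, was given in the chow at 40 mg/kg from day 21, and per the labels muscle was taken at day 36. Each group holds 4 libraries. The study used 14 of them, numbered 2 to 4 in WT, 5 to 8 in WT + TAM, 9 to 11 in *Mtm1* KO and 13 to 16 in *Mtm1* KO + TAM, and these are the libraries of all values below unless another is named.

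Depth was similar, from 25116179 to 29847222 counts per library. *Mtm1* had 341 to 369 counts in WT and 63 to 76 in *Mtm1* KO, and it fell by 2.56 on the log2 scale (edgeR quasi-likelihood test, adjusted p = 2.14e-04). The library labelled WT replicate 1, one of those the study did not use, held 74 *Mtm1* counts, which is the level of *Mtm1* KO and goes against its label. The other unused library, *Mtm1* KO replicate 12, held 85. The 7 skeletal muscle fiber markers checked (among them *Ckm*, *Acta1* and *Ttn*) were present in every library, at a summed 108054 to 151431 CPM (counts scaled to a common library size with TMM factors) in WT and 64688 to 79320 in *Mtm1* KO, and at 121574 to 126359 in WT + TAM and 62120 to 86872 in *Mtm1* KO + TAM. In each comparison of the genotypes 6 of the 7 had a log2 fold change below 0 and 1 above 0. The gene above 0 was *Myh1*, with means of 2971 CPM in WT and 5874 in *Mtm1* KO. Under tamoxifen its means were 4334 CPM in WT + TAM and 7550 in *Mtm1* KO + TAM. The library labelled WT replicate 1 summed to 138580 CPM for these markers, within the range of WT. The 4 macrophage or leukocyte markers in the table summed to 37.5 to 46.8 CPM in WT and 54.3 to 82.0 in *Mtm1* KO, and to 20.2 to 45.2 in WT + TAM and 52.8 to 94.7 in *Mtm1* KO + TAM. For markers of endothelium, fibroblasts, smooth muscle, Schwann cells, fat, red blood cells and proliferating cells the sums overlapped between genotypes. No marker of these lists was at 0 counts in every library. The fibroblast sum was mostly *Col1a1* (mean 1815 CPM in WT). Of the 4 fibroblast markers, 3 had a log2 fold change above 0 and 1 below 0 in each genotype comparison, and 0 were called (threshold below). Without tamoxifen *Pdgfra* lay at 37.7 to 44.7 CPM in WT and 49.6 to 70.2 in *Mtm1* KO. *Ly6a* lay at 61.0 to 65.9 and 81.1 to 121. Both separated, while *Dcn* and *Col1a1* overlapped. Under tamoxifen only *Dcn* separated, at 414 to 572 CPM in WT + TAM and 604 to 740 in *Mtm1* KO + TAM. The part of these shifts in the results below was not tested.

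The levels of the 9 genes were first compared with each other as RPKM, which is corrected for gene length. In WT, *Mef2c* stood highest, at 77.4 ± 2.57 RPKM (SD, n = 3), followed by *Myf6* at 62.2 ± 3.89 and *Mef2d* at 33.5 ± 0.875, with no overlap between these 3 genes. *Myog* (16.6 ± 0.298), *Mef2a* (15.8 ± 1.39) and *Myod1* (12.5 ± 3.90) came next, and the ranges of neighbours in this order overlapped. *Six4* lay at 1.97 ± 0.386 RPKM, and *Myf5* (0.656 ± 0.488) and *Pax7* (0.655 ± 0.138) were lowest and overlapped each other. In whole WT muscle the gene that marks satellite cells was thus among the least abundant of the 9.

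In *Mtm1* KO the order of RPKM levels was different. *Myf6* (151 ± 54.7, n = 3) and *Mef2c* (150 ± 19.6) overlapped at the top. *Myog* was the third, at 79.4 ± 14.05 RPKM, above *Mef2d* (39.4 ± 2.61) without overlap. *Myod1* (23.6 ± 4.86) and *Mef2a* (19.2 ± 4.39) overlapped, *Six4* lay at 2.003 ± 0.291, and *Pax7* was lowest, at 0.309 ± 0.0643 RPKM, below every value of *Myf5* (0.462 to 0.971). In WT + TAM the order of mean RPKM was *Mef2c* (76.0), *Myf6* (72.3), *Mef2d* (38.1), *Myog* (17.1), *Mef2a* (15.2), *Myod1* (11.7), *Six4* (1.86), *Pax7* (0.826) and *Myf5* (0.807). In *Mtm1* KO + TAM it was *Myf6* (188), *Mef2c* (140), *Myog* (54.8), *Mef2d* (40.3), *Myod1* (20.1), *Mef2a* (18.1), *Six4* (1.89), *Myf5* (0.756) and *Pax7* (0.415), and here *Myog* and *Mef2d* overlapped.

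**Figure D1:**
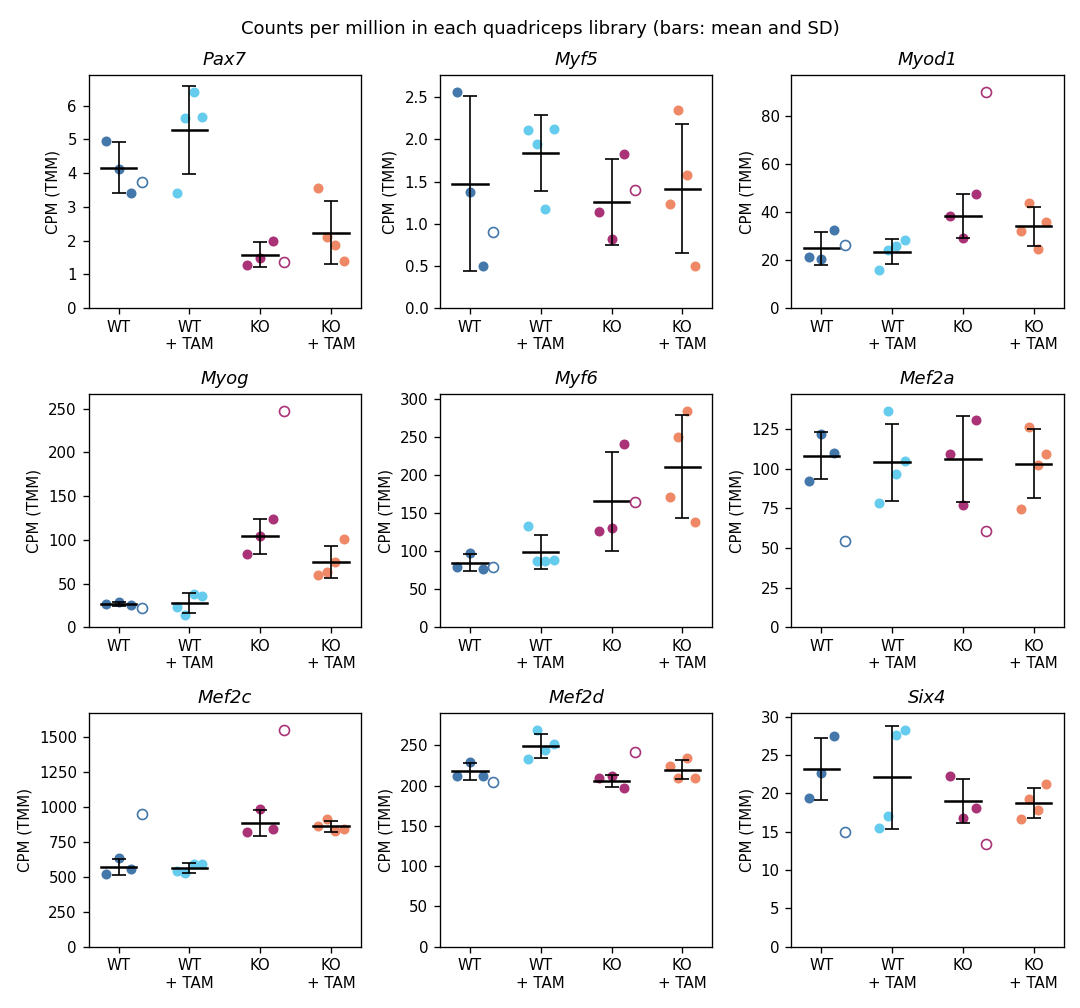
CPM (linear axis from 0, TMM scaling) of the 9 genes in each of the 16 quadriceps libraries by group. Filled points are the 14 libraries used, open circles are the library labelled WT replicate 1 and *Mtm1* KO replicate 12, horizontal lines are means and error bars are the SD over filled points; *Myog*, *Myf6* and *Mef2c* stand higher and *Pax7* lower in *Mtm1* KO than in WT with no overlap of filled points.

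Loss of *Mtm1* went with a higher level of *Myog*, *Myf6* and *Mef2c* and a lower level of *Pax7*, whose libraries did not overlap between *Mtm1* KO and WT. Only *Myog* passed the test. The test was the quasi-likelihood test of edgeR, p was adjusted over all genes by Benjamini-Hochberg, and a gene was called at 0.01 or below, the threshold that the study used. This held for 1 of the 9 genes, beside 3.60% of the 14740 genes tested (1.91% higher and 1.69% lower). Ranges did not overlap for 4 of the 9 genes, beside 35.7% of all genes tested, so that the share of separated genes was near the background.

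*Pax7* (ENSMUSG00000028736, minus strand of chromosome 4 from 139737062 to 139833528, GRCm38) encodes the paired-box factor that marks and maintains satellite cells. WT replicates 2, 3 and 4 held 4.94, 4.12 and 3.43 CPM, and *Mtm1* KO replicates 9, 10 and 11 held 1.27, 1.501 and 1.98 CPM. Every *Mtm1* KO value lay below every WT value. The log2 fold change was -1.39 (SE 0.28), and adjusted p = 0.0161 (edgeR quasi-likelihood test) missed the threshold. The values rest on 38 to 62 counts per *Mtm1* KO library and 90 to 135 per WT library. DESeq2 (adjusted p = 6.73e-04) and edgeR's exact test (adjusted p = 4.34e-04) placed the gene past the threshold. In RNA from whole muscle, fewer cells of a type and less RNA per cell cannot be told apart.

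*Myf5* (ENSMUSG00000000435, minus strand of chromosome 10 from 107482908 to 107486134) encodes the earliest of the myogenic helix-loop-helix factors to act in the embryo. Its 3 WT libraries held 2.56, 1.37 and 0.495 CPM, and its 3 *Mtm1* KO libraries 1.14, 0.816 and 1.82 CPM. The groups overlapped throughout. The log2 fold change was -0.23 with an SE of 0.57 (edgeR quasi-likelihood test, adjusted p = 0.826), and with 13 to 70 counts per library no difference was detectable at this depth.

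*Myod1* (ENSMUSG00000009471, plus strand of chromosome 7 from 46376474 to 46379099) encodes the factor that commits cells to muscle and can convert fibroblasts to it. Its WT libraries held 21.4, 20.6 and 32.8 CPM and its *Mtm1* KO libraries 38.5, 29.4 and 47.5. WT replicate 4 lay above *Mtm1* KO replicate 10, so the groups overlapped. The log2 fold change was 0.62 (SE 0.23, adjusted p = 0.105 in edgeR's quasi-likelihood test).

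*Myog* (ENSMUSG00000026459, plus strand of chromosome 1 from 134289989 to 134292548), which encodes myogenin, the factor required for myoblasts to differentiate into fibers, rose in *Mtm1* KO. WT replicates 2, 3 and 4 held 26.1, 29.4 and 25.5 CPM, and *Mtm1* KO replicates 9, 10 and 11 held 84.1, 104 and 124 CPM. The lowest *Mtm1* KO value lay above the highest WT value, and the WT libraries were close to each other. Means were 104 ± 19.8 and 27.0 ± 2.10 CPM (SD, n = 3 each), with a log2 fold change of 1.95 (SE 0.16) and adjusted p = 4.00e-04 (edgeR quasi-likelihood test). The call was kept under all 17 alternative settings, with log2 fold changes from 1.80 to 2.45. With the 2 unused libraries included, at 21.8 CPM (labelled WT replicate 1) and 247 CPM (*Mtm1* KO replicate 12), the log2 fold change was 2.45 (edgeR quasi-likelihood test, adjusted p = 0.00313).

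*Myf6* (ENSMUSG00000035923, minus strand of chromosome 10 from 107492853 to 107494737) lies beside *Myf5*, with 6718 bases between the annotated genes. Its WT libraries held 79.7, 97.9 and 76.7 CPM and its *Mtm1* KO libraries 127, 130 and 240 CPM. *Mtm1* KO replicate 11 stood high, and all 3 lay above WT. The log2 fold change was 0.97 (SE 0.24, adjusted p = 0.0330 in edgeR's quasi-likelihood test), past 0.05 but not past the threshold used. The neighbouring *Myf5* had groups that overlapped, as given above.

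Of the MEF2 genes, *Mef2c* (ENSMUSG00000005583, plus strand of chromosome 13 from 83504034 to 83667080) was the one whose libraries separated. It held 522, 635 and 556 CPM in WT and 820, 988 and 841 CPM in *Mtm1* KO. Each *Mtm1* KO value exceeded each WT value, and the log2 fold change was 0.63 (SE 0.15, adjusted p = 0.0243 in edgeR's quasi-likelihood test). DESeq2 placed it past the threshold (adjusted p = 4.92e-04). The library labelled WT replicate 1 held 948 CPM, the level of *Mtm1* KO, and *Mtm1* KO replicate 12 held 1547. With both included the log2 fold change was 0.65 and the adjusted p 0.214 in edgeR's quasi-likelihood test, and with *Mtm1* KO replicate 12 alone added it was 0.87 and 0.0529.

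*Mef2a* (ENSMUSG00000030557, minus strand of chromosome 7 from 67231163 to 67372858) held 92.5, 122 and 110 CPM in WT and 110, 77.2 and 131 CPM in *Mtm1* KO, with a log2 fold change of -0.031 (SE 0.19, adjusted p = 0.935 in edgeR's quasi-likelihood test). *Mef2d* (ENSMUSG00000001419, plus strand of chromosome 3 from 88142372 to 88172086) held 212, 230 and 211 CPM in WT and 209, 212 and 197 CPM in *Mtm1* KO, with a log2 fold change of -0.079 (SE 0.11, adjusted p = 0.683 in edgeR's quasi-likelihood test). Both genes overlapped between the groups, and their sign turned to positive when libraries were scaled by their total alone. The annotated span of *Mef2a* overlaps *Lysmd4* on the other strand and *Gm44667* and *Gm44668* on the same strand. That of *Mef2d* overlaps the antisense gene 1700113A16Rik. As the strand setting of the counting is not given in the sources used here, reads of these partners cannot be told apart. For the genes on the same strand a strand setting would not separate them. *Six4* (ENSMUSG00000034460, minus strand of chromosome 12 from 73099609 to 73113456) held 19.4, 22.7 and 27.4 CPM in WT and 22.2, 16.7 and 18.1 CPM in *Mtm1* KO. These ranges overlapped, and the log2 fold change was -0.28 (SE 0.17, adjusted p = 0.291 in edgeR's quasi-likelihood test), with the other sign when libraries were scaled by their total alone.

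Scaling by library total in place of TMM moved the middle of the log2 fold changes over all genes from 0.023 to 0.33 in *Mtm1* KO against WT, and from -0.014 to 0.27 in *Mtm1* KO + TAM against WT + TAM. *Myog*, *Myf6* and *Mef2c* stayed above this median, and *Pax7* below it at -1.08 in *Mtm1* KO against WT. Under this scaling 3 of the 9 genes were called in *Mtm1* KO against WT (*Myog*, *Myf6* and *Mef2c*), beside 7.89% of all genes tested.

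The same genotypes were compared under tamoxifen in 8 other libraries, *Mtm1* KO + TAM against WT + TAM, which shares no library with *Mtm1* KO against WT. *Myog*, *Myf6* and *Mef2c* rose and none of the 9 genes was called lower in edgeR's quasi-likelihood test, while *Pax7* was called lower under 6 of 17 alternatives. The call held for 3 of the 9 genes, beside 6.72% of the 14563 genes tested (3.42% higher and 3.30% lower), and ranges did not overlap for 3 of the 9 genes, beside 22.4% of all genes.

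*Myog* held 23.3, 14.3, 38.5 and 35.4 CPM in WT + TAM replicates 5 to 8, and 59.97, 63.4, 75.2 and 101 CPM in *Mtm1* KO + TAM replicates 13 to 16. The treated *Mtm1* KO libraries all lay above the treated WT libraries, which were more spread than the untreated ones. The log2 fold change was 1.40 (SE 0.28, adjusted p = 0.00672 in edgeR's quasi-likelihood test). The call of *Myog* was lost when any of 6 of the 8 libraries was left out in turn (WT + TAM replicates 5 or 8, or any *Mtm1* KO + TAM library), at adjusted p from 0.0105 to 0.0203 in edgeR's quasi-likelihood test.

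*Myf6* held 133, 87.0, 87.2 and 88.8 CPM in WT + TAM and 172, 250, 283 and 138 CPM in *Mtm1* KO + TAM. The groups met closely between WT + TAM replicate 5 and *Mtm1* KO + TAM replicate 16 but did not overlap. Its log2 fold change was 1.07 (SE 0.23, adjusted p = 0.00864 in edgeR's quasi-likelihood test). *Mef2c* held 540, 524, 588 and 594 CPM in WT + TAM and 860, 915, 826 and 842 CPM in *Mtm1* KO + TAM, with the groups far apart for their spread. Its log2 fold change was 0.60 (SE 0.11, adjusted p = 0.00412 in edgeR's quasi-likelihood test). The call of *Myf6* was lost without WT + TAM replicate 6, 7 or 8 or *Mtm1* KO + TAM replicate 13, 14 or 15 (adjusted p from 0.0124 to 0.0292 in the same edgeR test), and that of *Mef2c* without WT + TAM replicate 5, 7 or 8 or *Mtm1* KO + TAM replicate 14 (0.0114 to 0.0151). Without WT + TAM replicate 8, or without *Mtm1* KO + TAM replicate 14, 0 of the 9 genes were called. Without WT + TAM replicate 5, WT + TAM replicate 7 or *Mtm1* KO + TAM replicate 15, 1 was called.

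*Pax7* held 3.40, 5.63, 6.41 and 5.68 CPM in WT + TAM and 3.57, 2.11, 1.86 and 1.40 CPM in *Mtm1* KO + TAM. *Mtm1* KO + TAM replicate 13 lay just above WT + TAM replicate 5, and the other libraries separated. The log2 fold change was -1.26 (SE 0.31, adjusted p = 0.0175 in edgeR's quasi-likelihood test), and without *Mtm1* KO + TAM replicate 13 it was -1.56 (adjusted p = 0.00646 in the same test). The gene also passed with DESeq2 (adjusted p = 7.30e-04), with edgeR's exact test (0.00142), with no filter (0.00751), in 1 fit of 4 groups (0.00670) and at a threshold of 0.05. *Myod1* held 15.98 to 28.4 CPM in WT + TAM and 24.6 to 43.8 CPM in *Mtm1* KO + TAM, with a log2 fold change of 0.51 (SE 0.20, adjusted p = 0.108 in edgeR's quasi-likelihood test). The remaining log2 fold changes were -0.39 for *Myf5* (SE 0.41), -0.26 for *Six4* (SE 0.20), -0.20 for *Mef2d* (SE 0.098) and -0.029 for *Mef2a* (SE 0.19), all with overlapping groups and none called. Those of *Six4*, *Mef2d* and *Mef2a* took the other sign when libraries were scaled by their total alone.

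**Figure D2:**
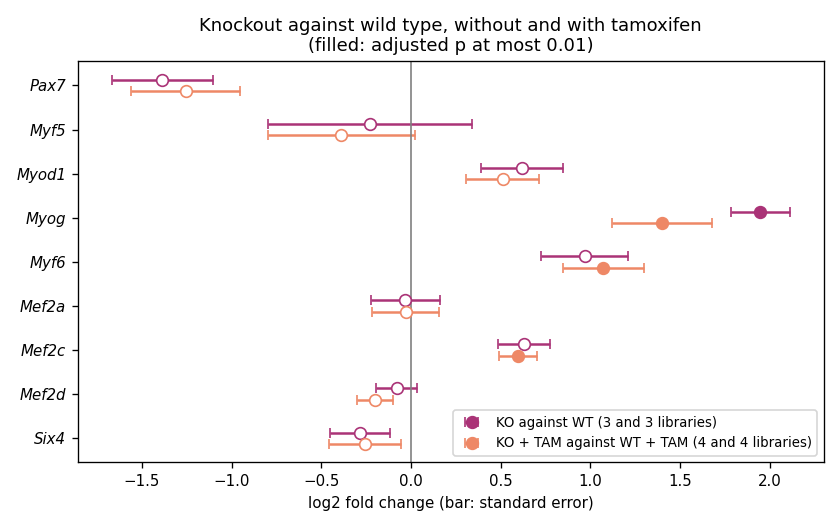
Log2 fold change (x axis) with its standard error (bars) for each of the 9 genes in *Mtm1* KO against WT and in *Mtm1* KO + TAM against WT + TAM, from edgeR's quasi-likelihood fit with TMM scaling. Filled points passed an adjusted p of 0.01; *Myog* is filled in both comparisons, *Myf6* and *Mef2c* in the treated one, and *Pax7* lies at -1.39 and -1.26 with open points.

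Tamoxifen itself moved none of the 9 genes past the threshold in either genotype. In *Mtm1* KO + TAM against *Mtm1* KO, 0 of the 9 genes were called by edgeR's quasi-likelihood test or under any of the 18 alternative settings, DESeq2 and limma among them, beside 0% of the 15062 genes tested. At an unadjusted p of at most 0.05 it was 1 gene, *Myog*, beside 7.55% of all genes. The *Myog* values of 59.97 to 101 CPM under tamoxifen lay lower on average than the 84.1 to 124 CPM without it, but the ranges overlapped, and the log2 fold change was -0.50 (SE 0.19, adjusted p = 0.540 in edgeR's quasi-likelihood test). *Pax7* (log2 fold change 0.48, SE 0.35, adjusted p = 0.842 in edgeR's quasi-likelihood test) and *Myf6* (0.33, SE 0.28, adjusted p = 0.861) had positive values within the spread of the libraries. The other 6 genes lay between -0.19 and 0.16.

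In WT + TAM against WT, 0 of the 9 genes were called by edgeR's quasi-likelihood test or under any of the 17 alternative settings, beside 0.131% of the 14544 genes tested, and 0 had an unadjusted p of at most 0.05, beside 10.7% of all genes. *Mef2d* was the 1 gene whose groups did not overlap, beside 11.2% of all genes. It held 212, 230 and 211 CPM in WT and 233, 269, 244 and 251 CPM in WT + TAM, with a log2 fold change of 0.19 (SE 0.10, adjusted p = 0.529 in edgeR's quasi-likelihood test). *Myog* stood at 0.039 (SE 0.29), with WT + TAM libraries both below and above all of WT, *Pax7* at 0.33 (SE 0.25) and *Myf6* at 0.22 (SE 0.17).

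Whether tamoxifen acted differently in the 2 genotypes was tested as an interaction in 1 fit of the 4 groups. Here 0 of the 9 genes were called in edgeR's quasi-likelihood test or in any alternative, and 0 had an unadjusted p of at most 0.05, beside 0% and 4.27% of the 15556 genes tested. For *Myog* the difference between the log2 effects was -0.53 with an SE of 0.38 (adjusted p = 1.00 in edgeR's quasi-likelihood test), too wide to tell a partial return toward WT from none.

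Treated *Mtm1* KO muscle was also set against untreated WT, a comparison that shares its libraries with those above. *Myog* (log2 fold change 1.44, SE 0.17, adjusted p = 6.43e-04 in edgeR's quasi-likelihood test) and *Myf6* (1.29, SE 0.23, adjusted p = 0.00397) were called higher, 2 of the 9 genes beside 3.56% of the 14942 genes tested that were called higher and 7.70% called in all. *Mef2c* (0.57, SE 0.13, adjusted p = 0.0119) and *Pax7* (-0.92, SE 0.31, adjusted p = 0.0629) were not called in this test. The call of *Myf6* was lost without WT replicate 2, WT replicate 4 or *Mtm1* KO + TAM replicate 14, which left 1 gene called.

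The balance of the factors within a library was described with RPKM ratios, which need no scaling between libraries and were given no test. *Myog*, a factor of differentiation, over *Pax7*, a factor of the stem cell, was 20.7 to 29.2 in WT and 244 to 272 in *Mtm1* KO (means 26.0 ± 4.59 and 258 ± 13.8, SD, n = 3 each). It was 9.96 to 26.8 in WT + TAM. In *Mtm1* KO + TAM it was spread most, from 65.8 to 280 (155 ± 91.3, n = 4), with every value above those of both WT groups. *Mtm1* KO replicate 12 stood at 708, which takes the mean of 4 *Mtm1* KO libraries to 371. The library labelled WT replicate 1 stood at 22.9, within the range of WT. Its *Pax7* (3.74 CPM), *Myf6* (79.6 CPM), *Myod1* (26.5 CPM) and *Myf5* (0.897 CPM) also lay within the ranges of WT, unlike its *Mtm1* and *Mef2c*. Its *Mef2a* (54.2 CPM), *Mef2d* (205 CPM), *Myog* (21.8 CPM) and *Six4* (14.9 CPM) lay below the ranges of WT.

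*Mef2c* made up 61.1 ± 0.659% of the summed RPKM of *Mef2a*, *Mef2c* and *Mef2d* in WT (SD, n = 3) and 71.7 ± 3.22% in *Mtm1* KO, and 58.8 ± 3.39% in WT + TAM and 70.5 ± 1.37% in *Mtm1* KO + TAM (n = 4 each). The ranges of the *Mtm1* KO groups (68.8 to 75.4%) lay above those of the WT groups (53.8 to 61.9%). The share of *Mef2d* was 26.4 ± 1.27% in WT and 18.9 ± 1.02% in *Mtm1* KO. The library labelled WT replicate 1 had a *Mef2c* share of 76.6%, above the ranges of both genotypes, and *Mtm1* KO replicate 12 had 82.1%. Among *Myf5*, *Myod1*, *Myog* and *Myf6*, *Myog* took 18.1 ± 0.455% of the summed RPKM in WT, 31.9 ± 4.65% in *Mtm1* KO, 16.7 ± 6.61% in WT + TAM and 21.9 ± 8.33% in *Mtm1* KO + TAM. The larger part in each of the 14 libraries was *Myf6*, which encodes the factor of mature fibers. In the unused *Mtm1* KO replicate 12 it was *Myog*, at 47.8% against 38.001% for *Myf6*.

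**Figure D3:**
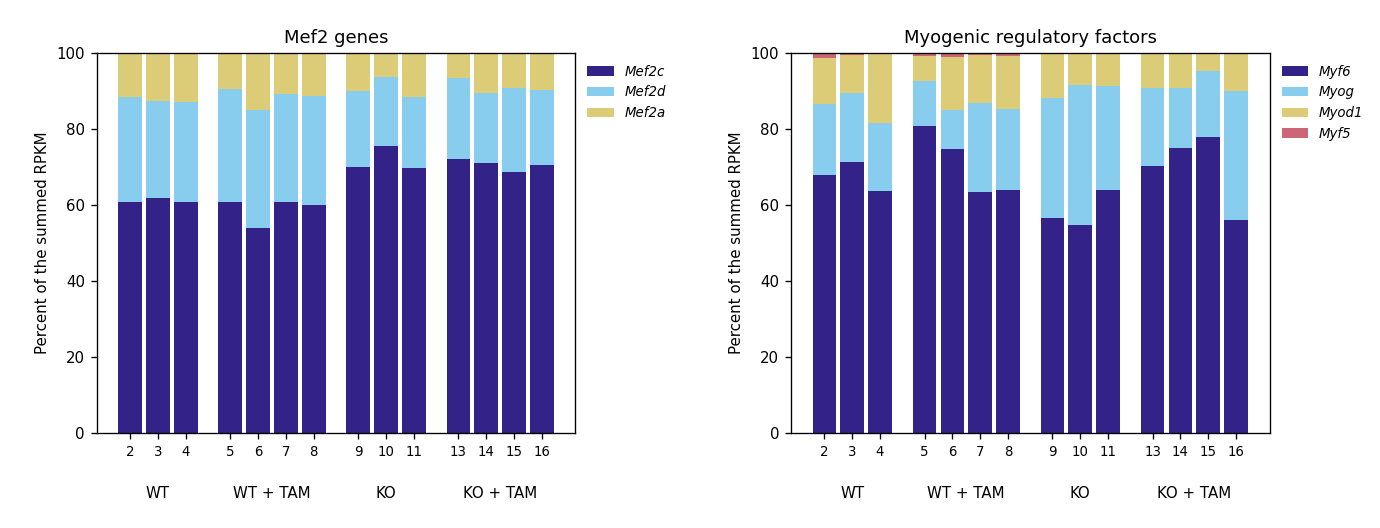
Share of each gene (y axis, percent) in the summed RPKM of *Mef2a*, *Mef2c* and *Mef2d* (left) and of *Myf5*, *Myod1*, *Myog* and *Myf6* (right), 1 stacked bar for each of the 14 libraries, numbered by replicate. *Mef2c* takes 53.8 to 61.9% in the WT and WT + TAM bars and 68.8 to 75.4% in the *Mtm1* KO and *Mtm1* KO + TAM bars, and *Myf6* takes more than any other gene in each bar on the right.

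The promoters of *Myog* and *Mef2c* are printed because the libraries of both genes separated by genotype, higher in *Mtm1* KO, with and without tamoxifen (*Myog* was called in both comparisons and *Mef2c* in the treated one), and because their sequence shows which motifs of the helix-loop-helix, MEF3 and MEF2 kinds lie at the start. RefSeq windows (GRCm38.p6) of the 250 bases before each start were used, with bases of annotated exons removed. Capitals mark the E-box CANNTG, bound by helix-loop-helix factors, and the MEF3 motif TCAGGTTTC, bound by SIX4 and its relatives. The *Myog* window is chr1:134289754-134289988 on the plus strand, and that of *Mef2c*, the first of 3 RefSeq starts, is chr13:83503784-83504033 on the plus strand.
Myog: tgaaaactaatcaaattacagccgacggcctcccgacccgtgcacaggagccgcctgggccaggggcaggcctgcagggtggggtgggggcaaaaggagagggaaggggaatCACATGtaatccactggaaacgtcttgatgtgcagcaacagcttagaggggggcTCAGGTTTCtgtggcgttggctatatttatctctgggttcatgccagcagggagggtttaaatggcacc
Mef2c: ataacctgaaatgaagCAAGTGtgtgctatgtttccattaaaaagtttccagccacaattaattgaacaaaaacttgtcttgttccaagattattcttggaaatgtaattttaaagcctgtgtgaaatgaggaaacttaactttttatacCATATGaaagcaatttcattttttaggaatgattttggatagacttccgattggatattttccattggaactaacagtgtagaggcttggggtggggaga
In *Myog* the E-box CACATG began 138 bases and the MEF3 motif 84 bases before the RefSeq start. The printed *Myog* sequence stops short of that start, as an annotated exon left 235 of its 250 bases. In *Mef2c* the E-boxes CAAGTG and CATATG began 234 and 100 bases before the RefSeq start. On either strand, an E-box was found in 66.2% of 32851 windows of 250 bases and the MEF3 motif in 0.387%, and in windows cut to the 235 bases of *Myog* in 64.1% and 0.365%. The MEF2 consensus used was YTAWWWWTAR, where Y is C or T, W is A or T and R is A or G. Neither window matched it in full, while 2.92% of windows of 250 bases did. The *Myog* window holds ctatatttat, which differs from this consensus only in its last base. A match is a description of the letters and not a sign of binding. *Myod1* and *Myf6* had no entry.

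Genes that act with or under the 9 factors were then described by list, beside a median over all genes tested of 0.023 in *Mtm1* KO against WT and -0.014 in *Mtm1* KO + TAM against WT + TAM. Of the 6 lists, the one with its median farthest from 0 was that of 18 genes of early muscle differentiation that are known targets of the myogenic factors. Their median log2 fold change was 1.60 in *Mtm1* KO against WT, where 8 were called higher and 1 lower, and 1.63 in *Mtm1* KO + TAM against WT + TAM, where 10 were called higher and 0 lower. Over all genes tested, 1.91% were called higher and 1.69% lower in *Mtm1* KO against WT, and 3.42% and 3.30% under tamoxifen. Higher in both were the acetylcholine receptor subunits *Chrna1* (2.20 and 1.76), *Chrnd* (3.03 and 2.74) and *Chrng*, the subunit of the fetal receptor (3.65 and 1.75), the embryonic and perinatal myosin heavy chains *Myh3* (3.89 and 3.35) and *Myh8* (2.60 and 1.83), the embryonic light chain *Myl4* (3.70 and 2.03), the cardiac and embryonic troponin *Tnnt2* (1.86 and 2.15) and *Cdkn1a*, the inhibitor of the cell cycle that myoblasts use to exit it (3.65 and 2.63). *Chrng* lay at 0.512 to 0.858 CPM in WT and 5.42 to 13.2 CPM in *Mtm1* KO. *Myh3* lay at 1.07 to 5.06 CPM in WT and 33.2 to 47.5 CPM in *Mtm1* KO, with no overlap. *Chrnb1* (1.04) and *Gm7325*, the file's symbol for the fusion protein myomixer (4.13), were called higher under tamoxifen. In *Mtm1* KO against WT they were not called, at log2 fold changes of 0.54 (adjusted p = 0.0497 in edgeR's quasi-likelihood test) and 3.998 (adjusted p = 0.0146). *Gm7325* had 1442 counts in the *Mtm1* KO libraries together and 75 in WT, and 634 in *Mtm1* KO + TAM and 26 in WT + TAM. The test of the difference between the comparisons, which is that of the interaction, called neither (0.52, SE 0.23, for *Chrnb1* and 0.16, SE 1.03, for *Gm7325*, adjusted p = 1.00 for both in edgeR's quasi-likelihood test). *Actc1*, the actin of heart and embryonic muscle, went the other way in *Mtm1* KO (-2.88, with 538 to 1245 CPM against 4329 to 10822 in WT). Under tamoxifen *Actc1* was also lower without overlap but was not called, at 96.6 to 1732 CPM in *Mtm1* KO + TAM and 2844 to 4085 in WT + TAM. The calls of the 8 genes higher in *Mtm1* KO against WT held under all 17 alternatives. Under tamoxifen those of *Chrng* and *Myh8* were lost under 7 and 4 of 17 (largest adjusted p 0.0244 and 0.0160 in edgeR's quasi-likelihood test), each time with 1 library left out, and the call of *Actc1* was lost under 2 in *Mtm1* KO against WT.

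The 24 satellite cell genes had no shared direction, with a median of 0.023 in *Mtm1* KO against WT and -0.16 under tamoxifen. The RNA was from whole muscle, so expression of these genes in other cells was not separated. In *Mtm1* KO against WT 1 was called higher and 2 lower, beside 1.91% and 1.69% of all genes tested. With any 1 library left out other than *Mtm1* KO replicate 10, 0 were called in either direction, and without that library 1 was called higher and 0 lower. *Ncam1*, a surface protein of satellite cells, myoblasts and denervated fibers, was higher in both comparisons (1.52 and 1.69). The 2 called lower in *Mtm1* KO were *Fgfr4*, a receptor of fibroblast growth factor (-1.79), and *Calcr*, the calcitonin receptor that marks quiescent satellite cells. *Calcr* had 5 counts in the 3 *Mtm1* KO libraries together and 105 in WT, a ratio of 0.0495 per total count (95% Poisson interval 0.0157 to 0.119, for counting error only). The call of *Fgfr4* held under 6 of 17 and that of *Calcr* under 10 of 16 alternatives, and that of *Ncam1* was lost under 5 of 17 in each comparison. Under tamoxifen 2 were called higher, *Ncam1* and the laminin receptor *Itga7* (0.81), and 1 lower, the secreted *Chrdl2* (-2.41). These counts stood beside 3.42% and 3.30% of all genes tested. *Calcr* there had 22 counts in *Mtm1* KO + TAM and 88 in WT + TAM, a ratio of 0.224 (95% Poisson interval 0.134 to 0.361). *Fgfr4* was not called under tamoxifen, at -0.997 (adjusted p = 0.0447 in edgeR's quasi-likelihood test). Without tamoxifen *Itga7* lay at 150 to 158 CPM in *Mtm1* KO and 88.5 to 113 in WT. *Chrdl2* lay at 0.192 to 0.685 CPM in *Mtm1* KO and 0.723 to 1.43 in WT, and neither gene was called in that comparison.

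Among 17 helix-loop-helix partners and repressors tested, *Id2* (1.71 and 1.32) was called higher in both comparisons and *Id3* (1.11) in *Mtm1* KO against WT. Under tamoxifen *Id3* was not called, at 44.9 to 62.9 CPM in *Mtm1* KO + TAM and 23.8 to 38.1 in WT + TAM, without overlap. Of the 17 alternatives in each comparison, the call of *Id2* was lost under 6 and 3 and that of *Id3* under 7, with an adjusted p of 0.260 for *Id3* in edgeR's quasi-likelihood test on all 16 libraries. ID proteins bind the E-protein partners of the myogenic factors and keep them from DNA. Of 18 relatives and partners of SIX4, with the EYA, TEAD and VGLL families among them, *Tead4*, a transcription factor under the control of the myogenic factors, was called higher in both (1.66 and 1.56), at 3.22 to 4.99 CPM in WT and 10.8 to 18.5 CPM in *Mtm1* KO. The call of *Tead4* was lost under 5 of the 17 alternatives in *Mtm1* KO against WT and under none in the other comparison. *Six2* was called lower under tamoxifen (-1.11), a call lost under 9 of 17. Without tamoxifen *Six2* was not called, at 6.27 to 12.4 CPM in *Mtm1* KO and 9.77 to 29.9 in WT. The median of this list was 0.099 and 0.017.

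Of 13 repressors and cofactors of MEF2 tested, *Mkl1*, a cofactor of serum response factor, was called lower in *Mtm1* KO against WT (-1.06) and *Srf*, which encodes that factor, under tamoxifen (-0.77), with list medians of -0.36 and -0.40. Without tamoxifen *Srf* was not called, at 74.5 to 90.5 CPM in *Mtm1* KO and 109 to 144 in WT. Under tamoxifen *Mkl1* was not called, at 14.2 to 22.6 CPM in *Mtm1* KO + TAM and 18.3 to 38.4 in WT + TAM. The calls of *Mkl1* and *Srf* were lost under 8 and 9 of the 17 alternatives. The list pools repressors with cofactors, and 4 of the 13 genes had values above 0 in *Mtm1* KO against WT and 3 under tamoxifen. *Hdac4*, which encodes a repressor, was not called, at 30.7 to 39.0 CPM in WT and 49.8 to 79.6 in *Mtm1* KO. Under tamoxifen its ranges of 41.1 to 51.3 and 49.6 to 75.6 CPM overlapped. In *Mtm1* KO against WT 1 gene of the list was called higher and 5 lower with DESeq2, and 1 higher and 4 lower with edgeR's exact test. At a threshold of 0.05 it was 1 higher and 5 lower, and with library totals 1 higher and 0 lower. Of 12 targets of MEF2, *Xirp1*, which encodes an actin-binding repeat protein of muscle, was called higher in both (1.21 and 1.70), with the call lost under 2 of 17 alternatives in *Mtm1* KO against WT. The creatine kinase gene *Ckm* (-0.87) and the orphan receptor *Nr4a1* (-0.76) were called lower under tamoxifen, and these calls were lost under 9 and 10 of the 17 alternatives. In *Mtm1* KO against WT, *Ckm* stood at -0.90 (adjusted p = 0.0227 in edgeR's quasi-likelihood test) and *Nr4a1* at -0.59 (adjusted p = 0.0692), neither called. The medians over the targets of MEF2 were -0.32 and -0.14.

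**Figure D4:**
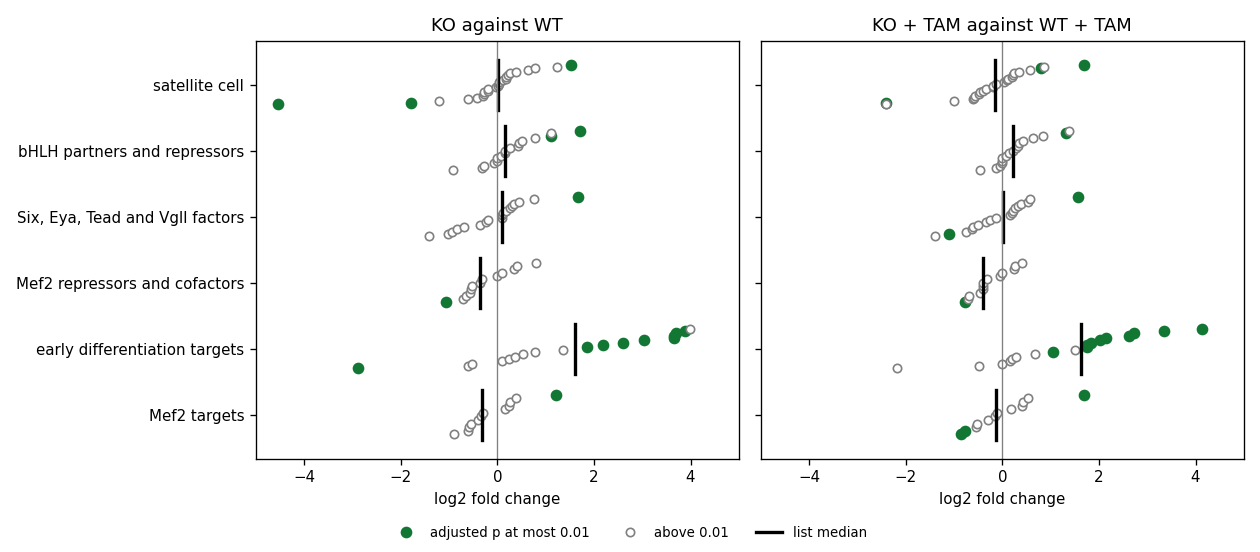
Log2 fold change (x axis) of the tested genes of 6 lists in *Mtm1* KO against WT (left) and *Mtm1* KO + TAM against WT + TAM (right), from edgeR's quasi-likelihood fit. Each point is 1 gene, filled where the adjusted p was at most 0.01, and the black bar is the list median, which lies at 1.60 and 1.63 for the early differentiation targets and between -0.40 and 0.22 for the others.

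The genes whose pattern over the 14 libraries was nearest to that of 2 of the factors were found by the root mean square difference of centred log2 CPM among 14651 genes. For *Myog*, whose own deviation was 0.92, these were *Ubash3b* (0.28), *Fam129b* (0.28) and *Tead4* (0.30). For *Pax7*, whose own deviation was 0.77, these were *Myo5c* (0.28), *Fgfr4* (0.28) and *Mylk2* (0.34). *Tead4* and *Fgfr4* are also members of the lists above. Likeness over these libraries is a description, since the libraries share genotype and depth.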

How the data were processed

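RNA from mouse quadriceps was sequenced in 16 libraries. The authors aligned reads to GRCm38 with STAR and deposited raw counts per gene, made with HTSeq, as whole numbers with no scaling. The deposited RPKM values were made by the authors from these counts by library total and gene length. Per the submitters' processing notes, bcl2fastq 2.17, STAR 2.5.0c and Cufflinks 2.2.1 were named. How reads were assigned to genes, with which strand setting and annotation, is not given in the sources used here. Mice were separate animals per the methods of the study, and no identical counts were found in any of 120 library pairs.

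Counts were tested with edgeR 4.0.16 in R 4.3.3 (quasi-likelihood test, TMM, filterByExpr with the group, minimum count 10 and minimum total 15, Benjamini-Hochberg over all genes, adjusted p at most 0.01) on the 14 libraries of the study, pairwise, with 1 fit of the 4 groups for the interaction. CPM was TMM-scaled over 16 libraries. The SE is the log2 fold change over the square root of F. The script was tested on simulated data. Other settings tried were edgeR's exact test, DESeq2 1.42.0, RLE or library total scaling, no filter, 1 fit of 4 groups, limma 3.58.1 on log2(RPKM + 0.1) and log2(RPKM + 1), 0.05 as the threshold, all 16 libraries, and the removal of each library in turn. The addition of *Mtm1* KO replicate 12 alone, the repeats for list genes and the repeats for shares of *Myog* and *Myf6* were chosen after seeing the data.

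Apart from cell type markers, overlapping genes and *Hdac4*, the named genes are the 9 factors, *Mtm1* and every gene of 6 lists called in either comparison of the genotypes. Also named are the 3 genes nearest to *Myog* and to *Pax7*, among genes whose mean count reached 10. The 9 genes and the lists were chosen with earlier results of these data known. Positions are from GENCODE vM21 (GRCm38). Reads shared between related genes were not examined.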

Additional observations from a re-analysis of the deposited data

Results flagged for a closer look

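In each of 36 sets of 4 libraries (9 genes in 4 groups, all 16 libraries), the library at the edge was compared with the nearest other, and 2 stood apart by Dixon's criterion at the 95% level, both for *Myf6*. Chance sets apart about 1 in 20 such sets. *Myf6* lay at 97.9 CPM in WT replicate 3, with the other 3 libraries of the group between 76.7 and 79.7. It lay at 133 CPM in WT + TAM replicate 5, with the other 3 between 87.0 and 88.8. Each high value lay below the *Myf6* values of the *Mtm1* KO libraries it was compared with. No explanation was tested.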

How the results depend on the processing

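Depth limits *Myf5* (13 to 78 counts per library) and *Pax7* (38 to 152), and 3 or 4 libraries per group limit every comparison. No paired analysis was possible because the groups share no replicate numbers, and the labels do not say which animals share a litter, although the study states that samples came from littermates. In *Mtm1* KO against WT, where 1 of the 9 genes was called, the number was 4 with DESeq2, with edgeR's exact test and at a threshold of 0.05, 3 with library totals and with no filter, 2 in 1 fit of 4 groups and 2 in both limma settings. The genes beyond *Myog* were *Pax7*, *Myf6* or *Mef2c*. All genes called ranged from 182 without *Mtm1* KO replicate 11 to 1885 at 0.05, against 531. In *Mtm1* KO + TAM against WT + TAM the number was 3, 0 to 2 with 1 library left out, and 4 with *Pax7* added with DESeq2, with edgeR's exact test, with no filter, in 1 fit of 4 groups and at 0.05. In *Mtm1* KO + TAM against WT it was 2, 1 to 2 with 1 library left out, and 3 with *Mef2c* added under 7 settings (DESeq2, the exact test, library totals, both limma settings, 1 fit of 4 groups and 0.05). *Myog* was called in both comparisons with untreated WT under every setting.

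With 16 libraries the means moved to 371 for *Myog* over *Pax7* in *Mtm1* KO, to 10.51, 65.0 and 24.5% for the shares of *Mef2a*, *Mef2c* and *Mef2d* in WT, to 17.8% for that of *Mef2d* in *Mtm1* KO, to 17.5% for *Myog* in WT and to 53.3% for *Myf6* in *Mtm1* KO.

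Of the alternative values of genes not called and given one by one, 357 kept their direction and side of the threshold, 29 passed it and 31 took the other sign. In *Mtm1* KO against WT the log2 values with library totals and with limma (pseudocounts 0.1 and 1) were 0.064, 0.22 and 0.055 for *Myf5*, 0.28, 0.26 and 0.25 for *Mef2a*, 0.23, 0.23 and 0.23 for *Mef2d*, and 0.028, 0.033 and 0.021 for *Six4*. In *Mtm1* KO + TAM against WT + TAM they were 0.26, 0.25 and 0.24 for *Mef2a*, 0.080, 0.078 and 0.076 for *Mef2d*, and 0.023, 0.065 and 0.035 for *Six4*. In WT + TAM against WT, *Myog* was -0.062 and -0.053 with limma. With 1 library left out, values ran from -0.64 to 0.45 for *Myf5* and from -0.22 to 0.16 for *Mef2a* in *Mtm1* KO against WT, from -0.15 to 0.12 for *Mef2a* in *Mtm1* KO + TAM against WT + TAM, and from -0.16 to 0.26 for *Myog* in WT + TAM against WT. Library totals and the RPKM move the median of all genes by the shift given above, and the cause of the others was not tested. Calls were kept in 83 alternative values and lost in 19, none with the other sign. Of the list genes named, none took the other sign.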
